A study of Mus musculus with 6 samples.

Results

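Collagens and laminins build the extracellular matrix, and their chains were followed here in the first lumbar segment of the mouse spinal cord (L1). The members were the array probe sets whose platform annotation gives a single gene symbol of the form Col, number, a, number, or Lam, a letter from a to c, number. This rule found 101 probe sets for 52 genes, of 18193 named genes on the array. For 39 of the 52 genes at least 1 probe set passed the filter on dim signal, and 60 of the 101 probe sets passed it. The filter asked for a mean of log2(intensity + 25.6) over the 6 arrays above the 40th percentile. Turned back into an intensity, this cutoff was 147.7.

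The arrays came from male SCID mice, which lack functional T and B cells, aged 9 weeks at the start and 15 weeks at sampling, 6 weeks later. The N-inv mice had received cells of the human pancreatic cancer line Capan-1 in the left sciatic nerve, as a model of tumour growth along nerves. The SC mice were the subcutaneous model and the PBS mice the vehicle model, both made as controls. Each group had 2 arrays, and the labels do not say in words that these were separate animals. The p-values therefore reflect only the scatter among these arrays, and some of it may be technical.

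Collagens are trimers of alpha chains wound into a triple helix. Type IV collagen and the laminins form the sheets of basement membranes, laminins as trimers of an alpha, a beta and a gamma chain. Fibrillar collagens such as types I, III and V assemble into ropes that carry tension. In the spinal cord, basement membranes surround the vessels and line the glial border under the meninges, while fibrils belong mainly to the meninges, to the larger vessels and to nerve roots. The members were therefore read as 18 basement membrane genes, 11 fibrillar genes and several smaller classes.

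1 array went against its label. All mice are labelled male, yet Xist, which inactivates an X chromosome in females, read 13065 in SC replicate 2, where the other 5 arrays lay between 138.6 and 228.5. Both SC arrays also had lower median correlations with the other arrays, 0.972 and 0.971, against 0.981 in each N-inv and PBS array. The Actb control probes, whose 3' to 5' signal ratio grows as RNA is degraded, gave ratios of 3.32 and 3.42 in N-inv, 3.81 and 4.7 in SC, and 3.05 and 3.57 in PBS. The Gapdh ratios were 3.12 and 3.38 in N-inv, 3.52 and 3.38 in SC, and 2.82 and 3.02 in PBS, and did not set SC replicate 2 apart. For some of the genes described, the value with an SC array left out is given beside the result. The tissue carried its markers: 12 of 12 measured genes of cord neurons and glia passed the filter, while 9 of 10 skeletal muscle genes lay below it. Of 5 choroid plexus genes, Ttr, Kl and Folr1 lay below the filter and Kcnj13 and Clic6 above it. Kcnj13, a potassium channel gene, measured 107.5 and 90.0 in N-inv, 343.0 and 329.0 in SC, and 303.9 and 269.4 in PBS, so both N-inv arrays were lowest, by -1.33 ± 0.17 against PBS (SE, adjusted p = 0.811 in limma).

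All values below are intensities scaled to a common array median of 256.2, and differences are on the scale log2(intensity + 25.6), which understates the change of dim genes. Each gene is read by its brightest probe set unless another is named. Since a probe set's intensity depends on its own sequence, levels are compared between arrays and never between genes. The RNA came from whole tissue, so fewer cells of a type and less RNA per cell cannot be told apart.

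No collagen or laminin passed the adjusted threshold in any comparison. The count was 0 of 60 probe sets in each of the 3 comparisons in limma with Benjamini-Hochberg adjustment over 27022 probe sets. The background was also 0% of all probe sets tested in each comparison. The smallest adjusted p of a member was 1 when N-inv was set against PBS, 0.495 when it was set against SC, and 0.524 for SC against PBS. Differences below are therefore values, not called changes. The 95% interval of a gene's log2 difference reached a median of 0.53 or 0.54 to either side of the estimate, depending on the comparison, so a difference smaller than this could not be told from 0 for most genes.

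**Figure D1:**
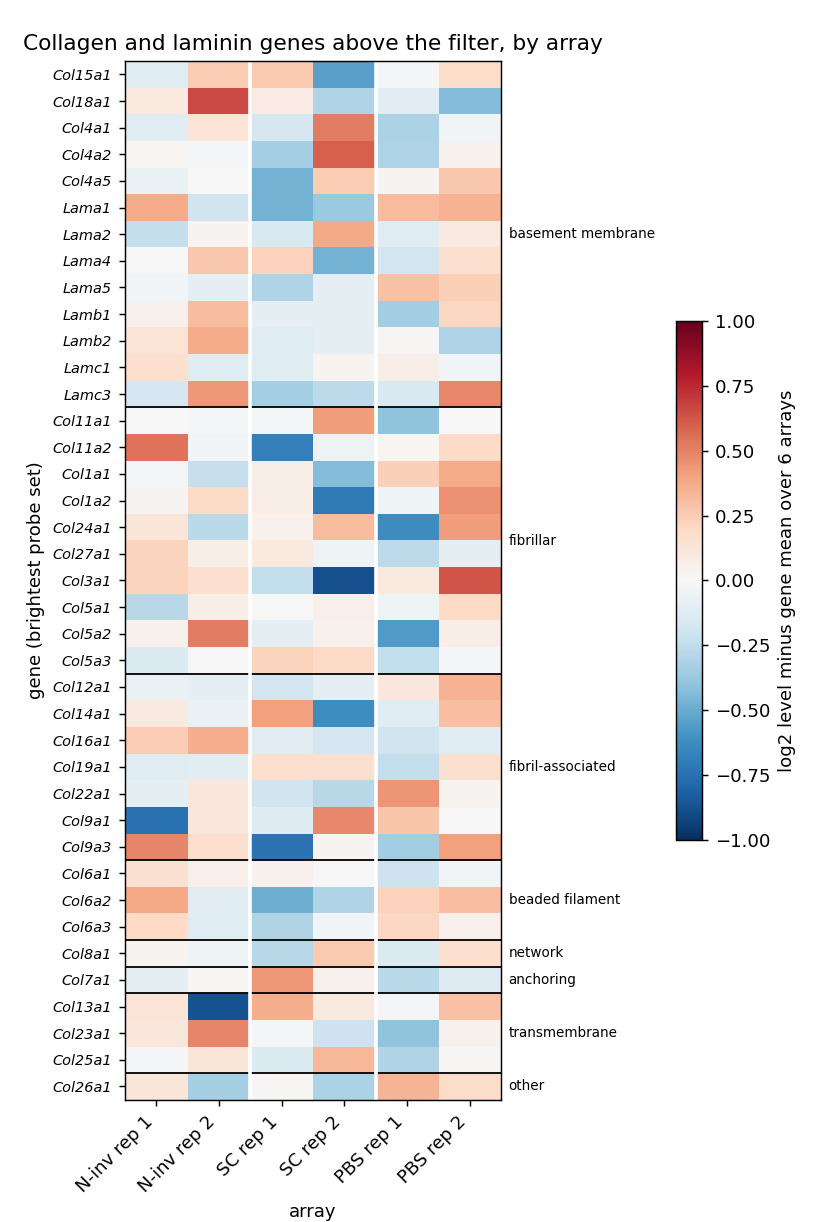
Log2 level of each of the 39 genes above the filter in each array (columns: N-inv, SC and PBS, 2 arrays each), minus that gene's mean over the 6 arrays; red is higher and blue lower, and black lines part the classes. Some genes have 1 colour in both arrays of a group, such as Lama1 and Col6a2, blue in SC. The SC replicate 2 column holds strong reds (Col4a1, Col4a2) beside strong blues (Col3a1, Col1a2).

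The main type IV collagen chains were both highest in SC replicate 2 and did not separate the groups. Col4a1 and Col4a2 encode the alpha chains of the ubiquitous type IV trimer. Their genes lie head to head in the mouse genome, with annotated starts 21 bases apart on opposite strands, so their promoter windows overlap by 78 bases. The windows below run from 250 bases before to 50 bases after the start (RefSeq, build GRCm38.p6). They are shown because the brightest probe sets of both genes were highest in SC replicate 2. The lowest array differed, PBS replicate 1 for Col4a1 and SC replicate 1 for Col4a2. A part of the shared promoter region in these values was not tested. The windows lie at chr8:11312777-11313076 on the minus strand for Col4a1 and chr8:11312555-11312854 on the plus strand for Col4a2. Capitals mark matches of the GC box letters GGGCGG and of CCAAT, on either strand, so that CCGCCC and ATTGG are the same motifs read backwards.
Col4a1: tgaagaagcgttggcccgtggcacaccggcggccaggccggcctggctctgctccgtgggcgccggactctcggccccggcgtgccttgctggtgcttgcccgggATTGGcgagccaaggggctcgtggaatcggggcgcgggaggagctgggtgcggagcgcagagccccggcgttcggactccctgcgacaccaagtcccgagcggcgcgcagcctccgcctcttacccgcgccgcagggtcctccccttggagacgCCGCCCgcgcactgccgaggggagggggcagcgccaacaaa
Col4a2: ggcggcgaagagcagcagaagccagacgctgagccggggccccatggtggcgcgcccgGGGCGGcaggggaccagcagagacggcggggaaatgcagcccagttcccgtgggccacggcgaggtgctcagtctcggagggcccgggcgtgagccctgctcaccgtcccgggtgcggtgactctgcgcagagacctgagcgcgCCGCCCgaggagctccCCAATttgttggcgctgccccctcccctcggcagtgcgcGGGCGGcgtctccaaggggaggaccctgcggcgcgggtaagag

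Col4a1 measured 2704 and 3239 in N-inv, 2608 and 4209 in SC, and 2349 and 2883 in PBS. Col4a2 measured 1306 and 1275 in N-inv, 1015 and 1963 in SC, and 1032 and 1319 in PBS. For both genes SC replicate 2 held the highest value of the 6 arrays, and the groups overlapped in all 3 comparisons. The log2 difference for N-inv against PBS was 0.18 ± 0.26 for Col4a1 and 0.14 ± 0.31 for Col4a2 (SE). For SC against PBS the differences were 0.35 ± 0.26 and 0.27 ± 0.31. Without SC replicate 2 these came to 0.00 for Col4a1 and -0.20 for Col4a2, so the direction of the SC difference rested on that array. N-inv against SC turned in the same way, to 0.18 and 0.34 without SC replicate 2, against -0.16 and -0.13 with it.

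A second probe set of Col4a1 did not follow the first. It measured 650.8 and 686.2 in N-inv, 859.9 and 544.8 in SC, and 620.5 and 822.7 in PBS, with its lowest value in the array where the brighter probe set was highest. The remaining measured type IV chain, Col4a5, which is part of networks in glomeruli and in other specialised basement membranes, measured 619.2 and 650.6 in N-inv, 464.5 and 781.9 in SC, and 666.7 and 789.7 in PBS. Both N-inv values of Col4a5 lay below both PBS values, a log2 difference of -0.19 ± 0.26 (SE), and its other probe set gave -0.30 ± 0.24. Col4a3, Col4a4 and Col4a6 were below the filter.

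Laminin alpha chains set the identity of a laminin trimer, and 2 of them were lower in SC at the unadjusted level. Lama1, a chain of the glial and meningeal basement membranes, measured 201.4 and 127.3 in N-inv, 100.7 and 110.6 in SC, and 192.8 and 198.4 in PBS. Both SC values lay below all other arrays, by -0.75 ± 0.22 against PBS (SE, unadjusted p = 0.0111 and adjusted p = 0.524 in limma). Both SC values and that of N-inv replicate 2 were under the filter cutoff of 147.7, where intensities are poorly measured. N-inv exceeded SC by 0.51 ± 0.22, and the N-inv arrays themselves lay on either side of the PBS values. Lama5, a chain of endothelial basement membranes, measured 297.4 and 281.3 in N-inv, 240.6 and 282.5 in SC, and 377.5 and 362.4 in PBS. N-inv and SC were both below PBS without overlap, by -0.33 ± 0.16 for N-inv and -0.47 ± 0.16 for SC (SE). The unadjusted limma p was 0.083 for N-inv and 0.0248 for SC, and the second Lama5 probe set pointed the same way with wide scatter, -0.44 ± 0.43 and -0.39 ± 0.43. Without SC replicate 2 the SC against PBS difference was -0.81 for Lama1 and -0.57 for Lama5. Without SC replicate 1 it was -0.70 and -0.36. Neither gene could change sign here, since both SC values of each lay below both PBS values.

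The other measured alpha chains did not separate the groups. Lama2, the alpha chain of glial and Schwann cell basement membranes, measured 902.4 and 1092 in N-inv, 960.8 and 1398 in SC, and 982.1 and 1136 in PBS. Lama4, an endothelial chain, measured 349.9 and 427.6 in N-inv, 416.2 and 245.6 in SC, and 305.7 and 395.0 in PBS. SC replicate 2 was the highest array for Lama2 and the lowest for Lama4. Without it, the SC against PBS difference was -0.13 for Lama2, against 0.13 with it, and 0.24 for Lama4, against -0.11 with it.

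Of the beta and gamma chains, Lamb2 was the one with both N-inv arrays above the other 4. Lamb2, found in mature vessel and synaptic basement membranes, measured 734.1 and 862.2 in N-inv, 607.6 and 618.2 in SC, and 666.5 and 527.9 in PBS. Its log2 difference was 0.41 ± 0.18 against PBS and 0.36 ± 0.18 against SC (SE), with an adjusted p of 1 and 0.619 in limma, and the difference against PBS lay between 0.25 and 0.57 with any 1 array left out. Lamb1, the beta chain of most other laminins, measured 905.0 and 1101 in N-inv, 817.2 and 819.2 in SC, and 683.2 and 1019 in PBS. Its wide PBS pair overlapped both other groups, and N-inv against PBS was 0.25 ± 0.23. Lamc3 measured 204.2 and 321.0 in N-inv, 179.9 and 189.9 in SC, and 207.3 and 334.6 in PBS, with both SC values below all others.

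Lamc1, the gamma chain shared by most laminins, depended on which probe set was read. The brighter one measured 827.5 and 672.1 in N-inv, 671.4 and 748.2 in SC, and 762.1 and 717.4 in PBS, and N-inv differed from PBS by 0.01 ± 0.18 (SE). The dimmer one measured 240.8 and 239.5 in N-inv, 325.7 and 182.5 in SC, and 405.7 and 484.6 in PBS. On the dimmer probe set every N-inv and SC array lay below both PBS arrays, by -0.82 ± 0.26 in N-inv and -0.79 ± 0.26 in SC (SE, unadjusted p = 0.0177 and 0.0202 in limma). The deposited values do not show which of these describes the gene.

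The multiplexins Col15a1 and Col18a1 link basement membranes to the matrix around them, and the end of the type XVIII chain is released as endostatin, an inhibitor of vessel growth. Col18a1 measured 565.8 and 843.3 in N-inv, 558.5 and 423.1 in SC, and 485.7 and 383.1 in PBS. Both N-inv values exceeded all other arrays, by 0.65 ± 0.25 against PBS (SE, unadjusted p = 0.0382 in limma, adjusted p = 1) and by 0.49 ± 0.25 against SC. With any 1 array left out the difference against PBS lay between 0.37 and 0.93. The margin over SC was small, since the lower N-inv array was at 565.8 and the higher SC array at 558.5. The second Col18a1 probe set measured 331.9 and 321.3 in N-inv, 234.0 and 214.5 in SC, and 228.9 and 360.5 in PBS, above SC but overlapping PBS. Col15a1 measured 446.7 and 587.0 in N-inv, 588.0 and 328.2 in SC, and 480.4 and 555.0 in PBS, and its groups overlapped.

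**Figure D2:**
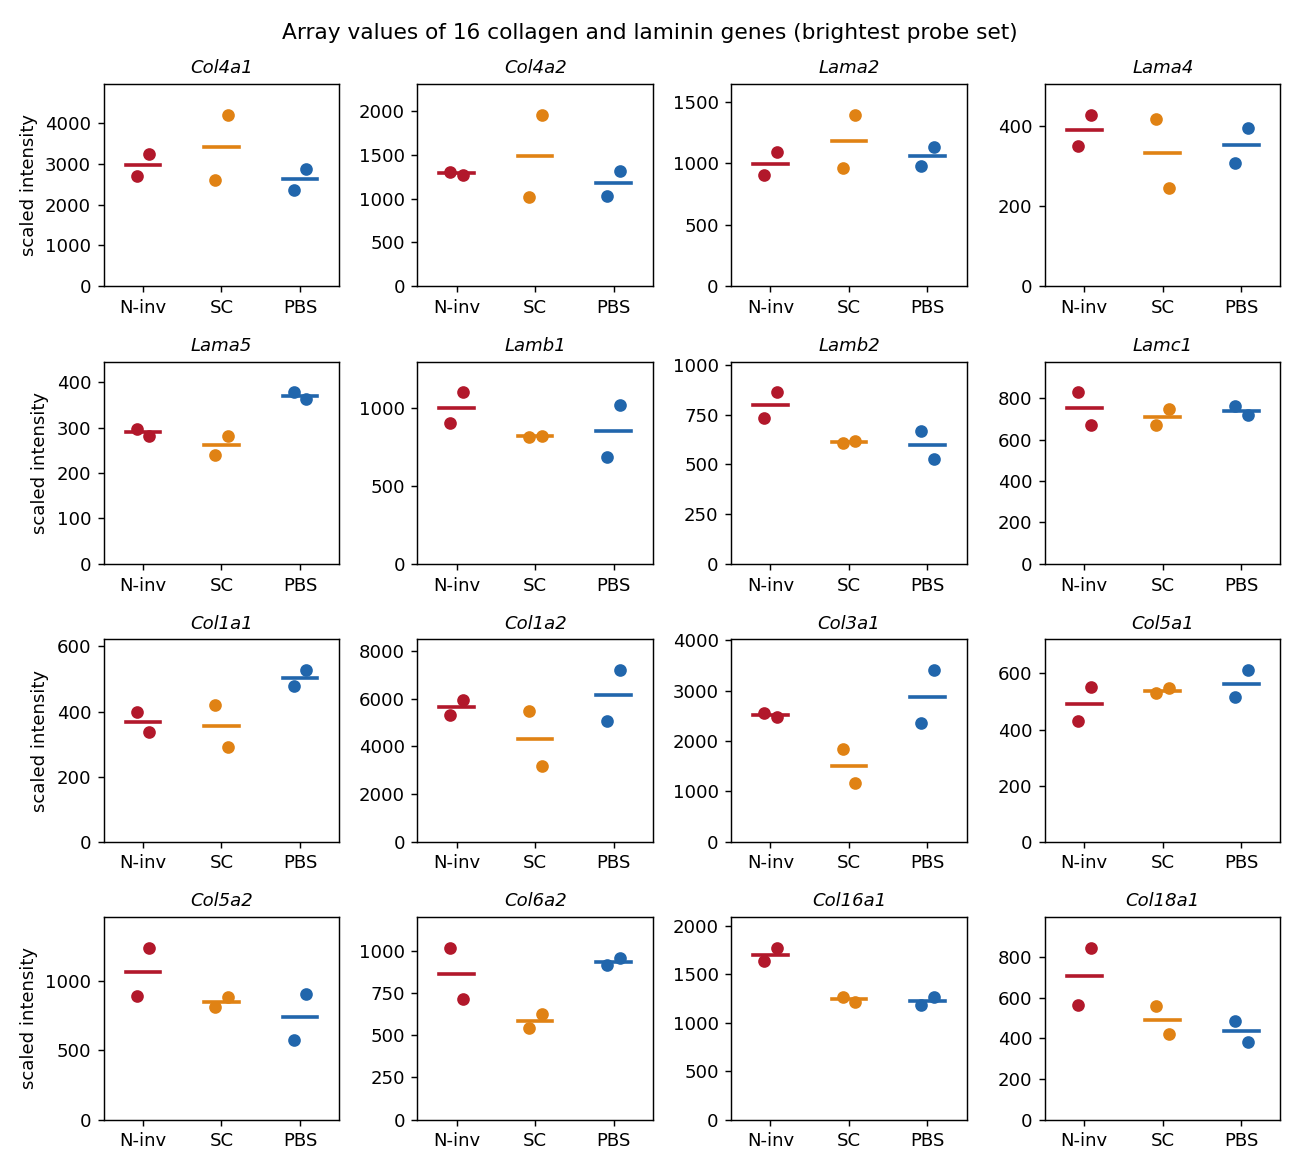
Scaled intensity of 16 collagen and laminin genes in each array (points) with the group mean (line), for N-inv, SC and PBS, 2 arrays each, with axes that start at 0. Col16a1, Col18a1 and Lamb2 have both N-inv arrays on top, Col3a1 and Col6a2 have both SC arrays at the bottom, and Lama5 and Col1a1 have both PBS arrays on top.

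Among the fibrillar chains, type I and type III collagen, the bulk of meningeal and vessel wall fibrils, had their lowest group means in SC. Col3a1, which forms homotrimers, measured 2552 and 2471 in N-inv, 1836 and 1173 in SC, and 2353 and 3402 in PBS. Both SC arrays lay below the other 4. The log2 difference was 0.76 ± 0.27 for N-inv against SC (SE, unadjusted p = 0.0266, adjusted p = 0.5 in limma) and -0.93 ± 0.27 for SC against PBS (unadjusted p = 0.0113, adjusted p = 0.525). N-inv and PBS overlapped, at -0.17 ± 0.27. Without SC replicate 2, the lowest array, the SC against PBS difference was -0.62, and without SC replicate 1 it was -1.25. A second Col3a1 probe set lay below the filter and was not tested. It measured 141.4 and 191.5 in N-inv, 124.2 and 110.5 in SC, and 98.4 and 151.0 in PBS. On it both SC arrays were below N-inv, but they lay between the PBS arrays.

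On the brightest probe sets the SC and PBS values of Col3a1 did not overlap, while those of Col1a2 did. Col1a2 shared its lowest and its highest array with Col3a1. It measured 5326 and 5959 in N-inv, 5472 and 3169 in SC, and 5080 and 7186 in PBS, again with the lowest value in SC replicate 2 and the highest in PBS replicate 2. The SC against PBS difference of -0.53 ± 0.30 shrank to -0.14 without SC replicate 2. A second probe set of Col1a2 was lower in both SC arrays, at 877.7 and 882.2 in N-inv, 750.4 and 626.8 in SC, and 977.2 and 983.2 in PBS, by -0.50 ± 0.16 against PBS (SE, unadjusted p = 0.0196 in limma). Its dimmest probe set leaned the other way, by 0.36 ± 0.35.

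The promoter windows of this pair are shown beside those of type IV collagen (RefSeq, GRCm38.p6, same lengths and capitals, with TATAAA also in capitals). They lie at chr6:4505368-4505667 for Col1a2 and chr1:45311288-45311587 for Col3a1, both on the plus strand.
Col1a2: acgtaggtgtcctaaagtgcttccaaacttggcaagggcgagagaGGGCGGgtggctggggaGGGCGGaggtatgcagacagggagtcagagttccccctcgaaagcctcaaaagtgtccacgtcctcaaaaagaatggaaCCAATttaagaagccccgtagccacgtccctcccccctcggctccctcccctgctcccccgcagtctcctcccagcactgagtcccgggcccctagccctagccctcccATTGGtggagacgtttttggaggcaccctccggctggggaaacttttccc
Col3a1: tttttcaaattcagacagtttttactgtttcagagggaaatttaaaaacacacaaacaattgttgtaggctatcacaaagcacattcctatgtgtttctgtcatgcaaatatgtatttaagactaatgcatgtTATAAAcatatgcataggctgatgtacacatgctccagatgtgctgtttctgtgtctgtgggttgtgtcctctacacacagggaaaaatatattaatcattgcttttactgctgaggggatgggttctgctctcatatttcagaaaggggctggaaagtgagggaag

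The windows of the pair differed in composition, with 61% G and C for Col1a2 and 37.7% for Col3a1, against 74% for Col4a1 and 73.7% for Col4a2. Windows were at hand for 38 of the 52 member genes, 42 windows in all. GGGCGG or CCGCCC was present in 59.5% of them, in 57.1% of the 14 basement membrane windows and in 75% of the 8 fibrillar windows, against 35.7% of all 32851 windows. CCAAT or ATTGG was present in 33.3% of member windows and 37.4% of all windows, and TATAAA or TTTATA in 11.9% and 13.6%. The motifs share no letters that would make 1 a part of another, and a match of such short letters describes the window and is not a binding site.

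Col1a1, the other chain of type I collagen, measured 399.7 and 338.0 in N-inv, 419.0 and 291.9 in SC, and 478.8 and 526.9 in PBS. Every N-inv and SC array lay below both PBS arrays, by -0.42 ± 0.21 for N-inv and -0.49 ± 0.21 for SC (SE, unadjusted p = 0.0864 for N-inv against PBS in limma). The SC difference was -0.73 without SC replicate 1 and -0.25 without SC replicate 2. A second Col1a1 probe set, below the filter and not tested, also had both PBS arrays on top, at 44.3 and 119.5 in N-inv, 20.7 and 26.0 in SC, and 190.5 and 157.9 in PBS.

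Type V collagen sets fibril diameter, and its alpha 2 chain leaned towards N-inv. Col5a2 measured 893.2 and 1239 in N-inv, 814.0 and 887.2 in SC, and 575.3 and 907.1 in PBS. The lower N-inv array lay below the higher PBS array, and the difference was 0.53 ± 0.26 (SE, unadjusted p = 0.087 in limma), or between 0.21 and 0.84 with any 1 array left out. Its second probe set separated N-inv from PBS, at 508.5 and 773.7 in N-inv, 517.4 and 500.4 in SC, and 360.8 and 419.8 in PBS, with N-inv above PBS by 0.66 ± 0.22 (unadjusted p = 0.0236). Col5a1 measured 430.2 and 551.5 in N-inv, 529.6 and 547.8 in SC, and 514.5 and 611.3 in PBS, with overlap throughout. Col5a3 measured 486.2 and 536.7 in N-inv, 631.4 and 617.1 in SC, and 448.1 and 528.9 in PBS, so that both SC arrays were above the other 4, by 0.34 ± 0.17 against PBS.

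The remaining fibrillar genes varied without a common direction. Col11a1 measured 924.0 and 917.8 in N-inv, 916.1 and 1249 in SC, and 693.2 and 921.2 in PBS. Col11a2 measured 494.6 and 324.9 in N-inv, 197.5 and 319.3 in SC, and 336.2 and 380.7 in PBS, with both SC arrays lowest, by -0.47 ± 0.28 against PBS. Its margin between N-inv and SC was narrow, 324.9 against 319.3, and the log2 difference of 0.62 ± 0.28 between these groups was 0.31 without SC replicate 1 and 0.94 without SC replicate 2. Col27a1 measured 1150 and 1029 in N-inv, 1058 and 953.3 in SC, and 816.0 and 920.7 in PBS, with both PBS arrays lowest. Col24a1 ranged from 210.5 in PBS replicate 1 to 464.8 in PBS replicate 2, so its spread within PBS covered all other arrays. Col2a1, the cartilage fibril chain, was below the filter.

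**Figure D3:**
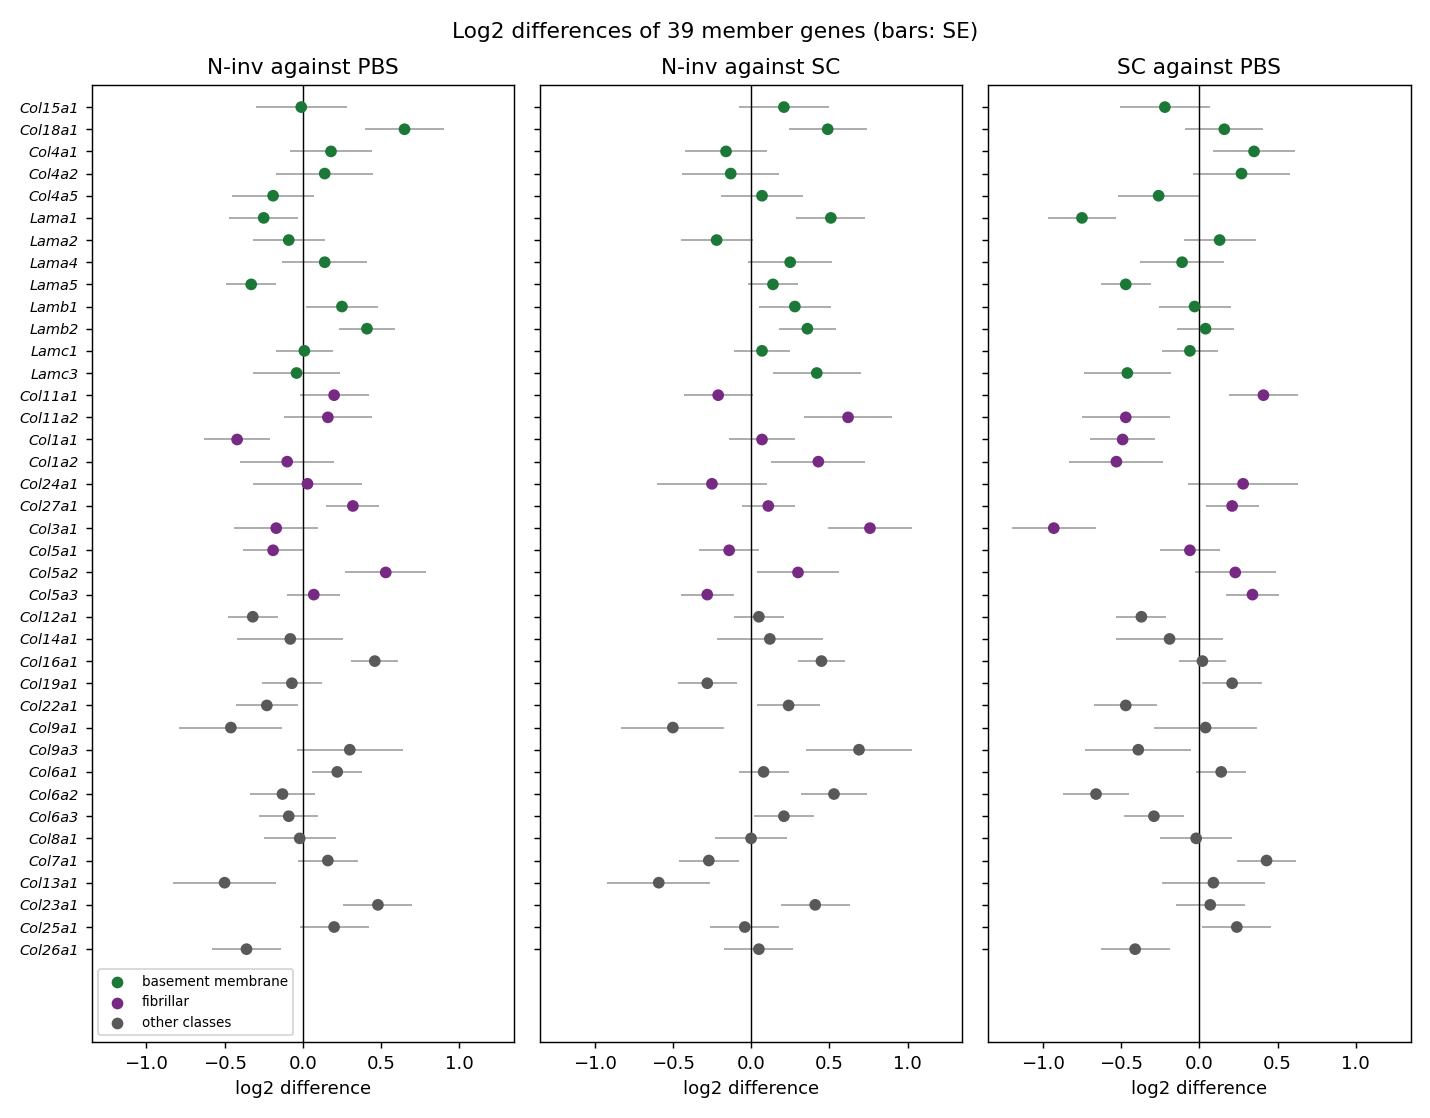
Log2 difference (x axis) of each of the 39 genes above the filter, with SE bars, in a panel for each comparison (left to right: N-inv over PBS, N-inv over SC, SC over PBS); green marks basement membrane genes, purple fibrillar genes and grey the other classes. Most bars cross 0 or come close to it, and Col3a1, Lama1 and Col6a2 lie farthest to the left for SC against PBS.

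Fibril-associated collagens sit on fibril surfaces, and Col16a1, a minor member of this class, had the smallest unadjusted p of any member gene's brightest probe set both for N-inv against PBS and for N-inv against SC. It measured 1635 and 1770 in N-inv, 1267 and 1215 in SC, and 1188 and 1265 in PBS. The N-inv arrays lay well clear of the other 4, which fell within a narrow band. The log2 difference was 0.46 ± 0.15 against PBS (SE, unadjusted p = 0.021, adjusted p = 1 in limma) and 0.45 ± 0.15 against SC (unadjusted p = 0.0245, adjusted p = 0.495). With any 1 array left out the difference stayed between 0.41 and 0.52 against PBS and between 0.39 and 0.50 against SC.

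Other members of the class had no common direction. Col12a1, which binds type I fibrils, measured 301.4 and 295.0 in N-inv, 277.8 and 296.4 in SC, and 345.1 and 413.1 in PBS, with all 4 N-inv and SC arrays below PBS. Col22a1, known from muscle and tendon junctions, measured 180.5 and 212.8 in N-inv, 167.0 and 156.6 in SC, and 273.4 and 199.3 in PBS. Both SC values of Col22a1 were below all others, by -0.47 ± 0.20 against PBS (SE, unadjusted p = 0.0496 in limma). Col19a1 measured 746.8 and 756.8 in N-inv, 918.9 and 917.0 in SC, and 680.0 and 912.7 in PBS. Both SC values exceeded all others, though PBS replicate 2 was close to them. Col9a1, a chain of cartilage fibrils, measured 110.7 and 221.8 in N-inv, 184.3 and 294.4 in SC, and 252.2 and 203.6 in PBS, with wide spread in each group.

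The probe sets of Col9a3 and Col14a1 show how much a single gene could vary. Col9a3 ranged from 250.7 in SC replicate 1 to 621.5 in N-inv replicate 1 on its brighter probe set, while its other probe set was lower in SC than in PBS by -0.77 ± 0.25 (SE, unadjusted p = 0.0182 in limma). Col14a1 had both its extreme values in SC, 430.2 in replicate 1 and 198.2 in replicate 2.

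Type VI collagen forms beaded filaments from its alpha 1, 2 and 3 chains, and those chains did not move together. Col6a2 measured 1016 and 714.8 in N-inv, 545.7 and 625.6 in SC, and 913.2 and 958.5 in PBS. Both SC arrays were lowest, with -0.66 ± 0.21 for SC against PBS (SE, unadjusted p = 0.0169, adjusted p = 0.573 in limma) and 0.53 ± 0.21 for N-inv against SC (unadjusted p = 0.0406, adjusted p = 0.54). Col6a1 measured 1246 and 1157 in N-inv, 1154 and 1118 in SC, and 966.0 and 1098 in PBS. Its N-inv against PBS difference was small, 0.22 ± 0.16 (SE). Col6a1 and Col7a1 were the 2 of 39 member genes whose 3 groups did not overlap at all, 5.13% against 8.27% of all probe sets tested. Col6a3 measured 634.1 and 503.1 in N-inv, 441.3 and 535.3 in SC, and 637.0 and 566.9 in PBS, and both its SC values lay below both PBS values. A second Col6a2 probe set, of a type that can also bind related transcripts, gave -0.02 ± 0.20 for SC against PBS.

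Col7a1, the chain of anchoring fibrils, measured 253.6 and 273.8 in N-inv, 374.0 and 280.0 in SC, and 220.6 and 246.1 in PBS. Its SC against PBS difference was 0.43 ± 0.19 (SE, unadjusted p = 0.0564 in limma), and it was 0.24 when SC replicate 1 was left out. Of the transmembrane collagens, Col23a1 measured 922.3 and 1209 in N-inv, 844.8 and 733.8 in SC, and 640.5 and 880.2 in PBS, with both N-inv values highest, by 0.48 ± 0.22 against PBS and between 0.26 and 0.70 with any 1 array left out. Its other probe sets disagreed, with -0.28 ± 0.19 and 0.06 ± 0.30 for N-inv against PBS. Col13a1, found at neuromuscular junctions, measured 168.9 and 70.8 in N-inv, 201.0 and 162.1 in SC, and 147.7 and 190.2 in PBS. The -0.50 ± 0.33 of Col13a1 against PBS rested on N-inv replicate 2, and without that array it was 0.01. Col25a1, a neuronal collagen, ranged from 977.1 in PBS replicate 1 to 1530 in SC replicate 2, and its groups overlapped. Col26a1 measured 194.5 and 135.7 in N-inv, 178.5 and 136.7 in SC, and 230.2 and 203.6 in PBS, with all 4 N-inv and SC arrays below PBS. Col8a1, a chain of hexagonal networks, did not separate any groups.

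The 13 genes below the filter were Col10a1, Col17a1, Col20a1, Col2a1, Col4a3, Col4a4, Col4a6, Col6a4, Col6a5, Col8a2, Col9a2, Lama3 and Lamb3, and several of them are chains of cartilage, skin or kidney. The 41 member probe sets below the filter ranged from 3.37 to 269.1 over single arrays. Col10a1, made by growth plate cartilage, measured 12.7 and 5.33 in N-inv, 13.9 and 7.53 in SC, and 100.5 and 60.6 in PBS. It was not tested, since at these intensities background and signal are not separated by the deposited values.

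Counted over the whole set, the median difference of N-inv against PBS stood close to the background. Of the 39 genes 19 were higher in N-inv and 20 lower, where 55.4% of all probe sets tested were higher. Their median difference was -0.01 on the log2 scale, against 0.02 over all probe sets tested. Of the 60 probe sets, 3 were higher with an unadjusted p under 0.05 (Col16a1, Col18a1 and the second Col5a2 probe set), where 2.28% of all probe sets tested were. In the other direction 1 was lower (the second Lamc1 probe set), where 1.78% were. Of the 60 probe sets, 8 were higher in N-inv without overlap between the N-inv and PBS arrays and 13 were lower, against backgrounds of 21.6% and 14.6%. On this count of probe sets more were lower than higher, where over all probe sets tested more were higher. Counted by gene on the brightest probe set the order turned, with 7 of the 39 genes higher without overlap and 5 lower. Basement membrane genes split into 7 higher and 6 lower with a median of 0.01, and fibrillar genes into 6 higher and 4 lower with a median of 0.05.

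More members leaned towards N-inv when it was set against SC, and the array as a whole leaned the same way by a smaller median. Of the 39 genes 27 were higher in N-inv and 12 lower, with a median of 0.11. Over all probe sets tested 58% were higher, with a median of 0.05. With an unadjusted p under 0.05, 4 of the 60 probe sets were higher (Col16a1, Col3a1, Col6a2 and the dimmest Col23a1 probe set) and 0 lower, where 5.96% and 2.99% of all probe sets tested were. Arrays did not overlap for 20 of the 60 probe sets higher in N-inv and for 3 lower, against backgrounds of 23.6% and 13.3%. Basement membrane genes had 10 higher and 3 lower, with a median of 0.21, fibrillar genes 6 and 4, with a median of 0.09, and the 8 laminin genes 7 and 1, with a median of 0.27. With a stricter filter at the 60th percentile, 9 basement membrane genes were left and their median was 0.07. The count of probe sets higher with an unadjusted p under 0.05 was 9 without SC replicate 1 and 4 without SC replicate 2.

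SC against PBS was the comparison in which most members had low unadjusted p-values, and all of them were lower in SC. With an unadjusted p under 0.05, 9 of the 60 probe sets were lower, where 5.17% of all probe sets tested were, and 0 were higher, where 2.76% were. These 9 belonged to Lama1, Lama5, Lamc1, Col1a2, Col3a1, Col6a2, Col9a3, Col22a1 and Col23a1, and for Lamc1, Col1a2, Col9a3 and Col23a1 the probe set was not the brightest of its gene. The count was 10 without SC replicate 1 and 7 without SC replicate 2. Arrays did not overlap for 17 probe sets lower in SC and 7 higher, against backgrounds of 20.2% and 14.2%. The typical member was close to the background: 18 of the 39 genes were higher and 21 lower, with a median of -0.03, against -0.02 over all probe sets tested. Basement membrane genes had 5 higher and 8 lower, with a median of -0.06, and fibrillar genes 5 and 5, with a median of 0.08. N-inv against SC and SC against PBS share the SC arrays, so the probe sets of Col3a1, Col6a2 and Col23a1 that appear in both are not separate evidence.

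Basement membrane and fibrillar genes were then set against each other within each array. The level of a class in an array was the median, over its genes, of the log2 level minus the gene's mean over the 6 arrays. For the 13 basement membrane genes it was 0.00 and 0.14 in N-inv, -0.15 and -0.10 in SC, and -0.11 and 0.16 in PBS. For the 10 fibrillar genes it was 0.04 and 0.03 in N-inv, 0.02 and 0.00 in SC, and -0.14 and 0.19 in PBS. The distance between the PBS arrays exceeded any distance between group means in both classes. The basement membrane level minus the fibrillar level was -0.04 and 0.11 in N-inv, -0.17 and -0.09 in SC, and 0.03 and -0.03 in PBS. Both SC arrays were thus below the other 4 on this difference, with means of 0.03 in N-inv, -0.13 in SC and 0.00 in PBS, where the SD between arrays of a group, pooled over the groups, was 0.07.

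The sign of the fibrillar median depended on which PBS array was kept. All 10 fibrillar genes were higher in PBS replicate 2 than in PBS replicate 1, as were 31 of the 39 members, against 59.9% of all probe sets tested. PBS replicate 2 was the highest of the 6 arrays for 5 of the 10 fibrillar genes, against 16.4% of all probe sets tested, and PBS replicate 1 the lowest for 5, against 15.8%. The fibrillar median for N-inv against PBS was -0.18 without PBS replicate 1 and 0.21 without PBS replicate 2. For SC against PBS it was -0.21 without PBS replicate 1. The basement membrane median for N-inv against PBS was 0.18 without N-inv replicate 1, 0.25 without PBS replicate 2 and 0.14 with the filter at the 60th percentile, and for SC against PBS it was -0.28 without PBS replicate 1.

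**Figure D4:**
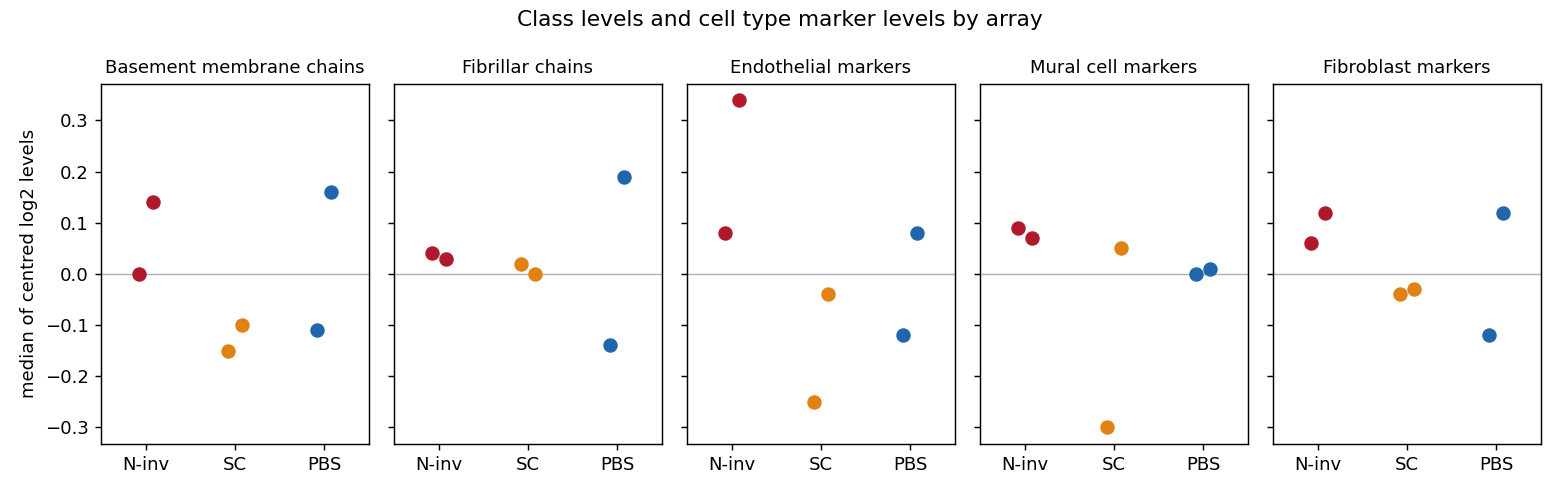
Median over genes of the log2 level minus the gene mean (y axis) in each array of N-inv, SC and PBS, for basement membrane and fibrillar chains and for 3 lists of cell type markers. The PBS points lie far apart for both classes of chains and for the fibroblast markers. For the basement membrane chains both SC points are negative and lie near PBS replicate 1. In the endothelial and mural lists 1 SC array each lies low.

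Markers of the cells that make these chains varied on the same arrays. The list of fibroblast markers left collagens out, and 15 were measured. Their median level was 0.06 and 0.12 in N-inv, -0.04 and -0.03 in SC, and -0.12 and 0.12 in PBS. PBS replicate 1 was thus the lower PBS array, as for the fibrillar genes. The same order held for the basement membrane genes and for the other marker lists except blood, where 1 gene was above the filter. Over all probe sets tested 59.9% were higher in PBS replicate 2. The summed intensity of the fibroblast list was 35743 and 38209 in N-inv, 36773 and 35436 in SC, and 30828 and 37189 in PBS. The 12 endothelial markers had medians of 0.08 and 0.34 in N-inv, -0.25 and -0.04 in SC, and -0.12 and 0.08 in PBS, with Pecam1 and Tie1 below the filter. The 11 mural cell markers had medians of 0.09 and 0.07 in N-inv, -0.30 and 0.05 in SC, and 0.00 and 0.01 in PBS. Of 9 cartilage and bone markers on the array, Comp, Matn1, Matn3, Chad and Ibsp were below the filter, while all 8 Schwann cell markers were above it. Some genes of other cells were lower in both SC arrays than in both PBS arrays. Mog, of oligodendrocytes, measured 2469 and 1282 in SC and 3808 and 3480 in PBS, by -1.02 ± 0.30 (SE). Pmp2, of Schwann cells, measured 375.7 and 35.5 in SC and 931.5 and 1336 in PBS, by -2.87 ± 0.79, and Acta1, of skeletal muscle, measured 78.4 and 164.3 in SC and 241.3 and 284.9 in PBS, by -1.03 ± 0.29. Mbp, a myelin gene of both oligodendrocytes and Schwann cells that was counted in the Schwann cell list, went the other way. It measured 80640 and 83710 in SC and 69608 and 75406 in PBS, by 0.18 ± 0.15. As whole lists, the 8 Schwann cell genes had 6 higher and 2 lower in SC against PBS and the 12 cord genes 6 and 6. The part of all these cell markers in the collagen and laminin values was not tested.

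Probe sets of a gene often disagreed, which bears on every single-gene value above. For 19 genes more than 1 probe set was above the filter, and the sign of the difference was not the same for all of a gene's probe sets in 7 of them for N-inv against PBS, 8 for N-inv against SC and 8 for SC against PBS.

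**Figure D5:**
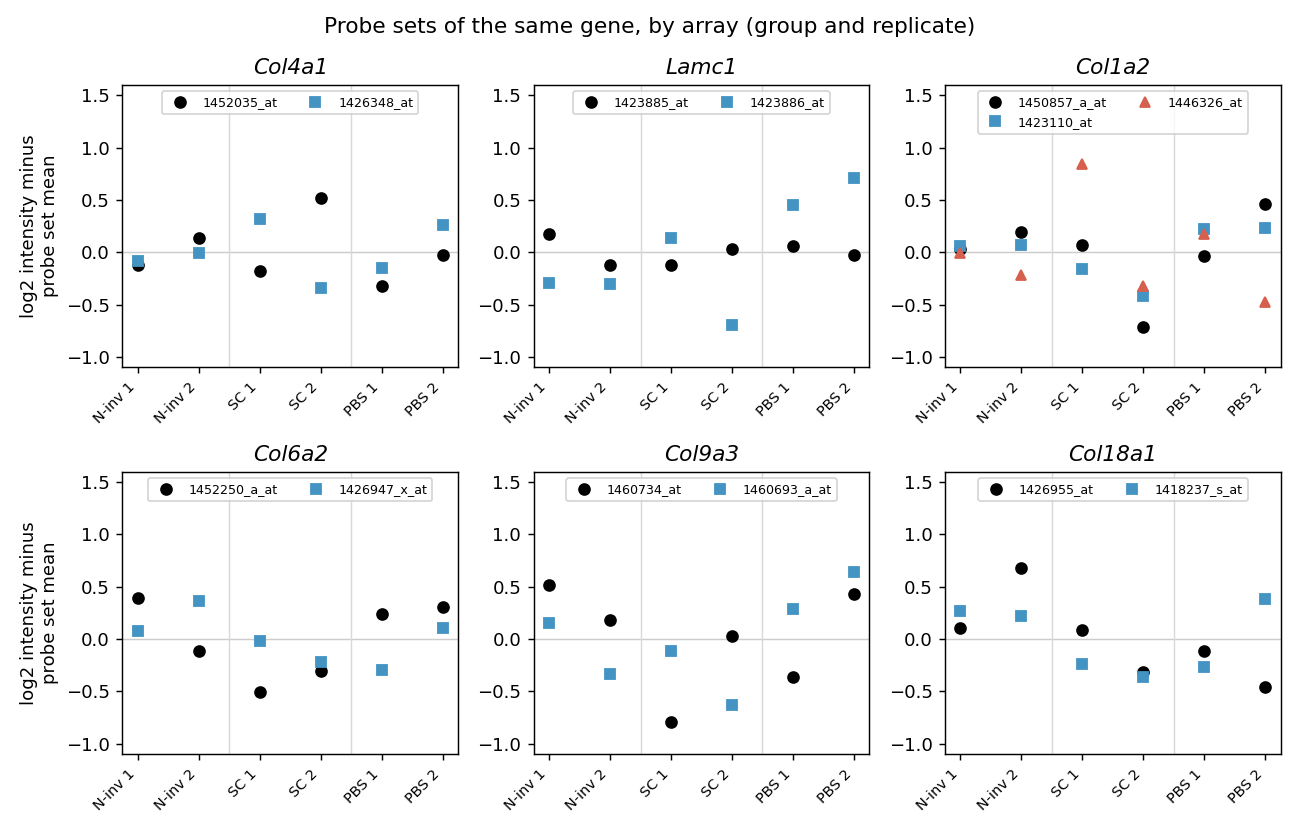
Log2 intensity minus the probe set's mean over the 6 arrays (y axis) for the probe sets above the filter of 6 genes, in each array (x axis: group and replicate). The probe sets of Col4a1 and Lamc1 part in SC replicate 2, and those of Lamc1 also in PBS, while the brighter probe sets of Col1a2 share their low in SC replicate 2.

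Partners that build, bind or degrade these chains were read from lists of known genes. Of 15 basement membrane partners, all above the filter, 9 were higher and 6 lower in N-inv against PBS, with a median of 0.07. Fn1, the fibronectin gene, measured 1942 and 2411 in N-inv, 1692 and 2199 in SC, and 1630 and 1255 in PBS, a difference of 0.59 ± 0.22 for N-inv against PBS (SE, adjusted p = 1 in limma). Sparc, a collagen-binding protein of the matrix, measured 25701 and 29564 in SC and 19630 and 19764 in PBS, a difference of 0.48 ± 0.16 (adjusted p = 0.577). Sparc thus lay higher in both SC arrays, where Col3a1 lay lower. Of 10 fibril partners above the filter, 6 were higher in N-inv than in PBS and 5 higher in SC than in PBS. Tnxb, a tenascin that binds fibrils, measured 402.7 and 364.6 in SC and 529.8 and 562.2 in PBS, by -0.48 ± 0.16 (SE).

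Enzymes of collagen synthesis had no common direction in SC. Of 24 above the filter, 10 were higher and 14 lower in SC against PBS, with a median of -0.07. Pcolce, which promotes removal of the procollagen end, measured 1055 and 836.0 in SC and 1317 and 1299 in PBS, a difference of -0.47 ± 0.17 (SE, adjusted p = 0.601 in limma). Lox, the crosslinking oxidase, went the other way, at 582.2 and 1108 in SC and 410.6 and 442.5 in PBS, a difference of 0.88 ± 0.33 (adjusted p = 0.609). P3h2, a proline hydroxylase of basement membrane collagen, stood at 317.7 in N-inv replicate 1 and 401.1 in N-inv replicate 2, where PBS had 307.3 and 59.3, so its difference of 1.19 ± 0.59 rested on PBS replicate 2.

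Receptors for collagens and laminins included an integrin chain that was high in N-inv and a laminin receptor that was low in SC. Itga7, a laminin-binding integrin chain, measured 1241 and 1061 in N-inv, 649.9 and 820.5 in SC, and 655.6 and 558.1 in PBS, a difference of 0.90 ± 0.19 for N-inv against PBS (SE, unadjusted p = 0.00265, adjusted p = 1 in limma). Bcam, a receptor for the laminin alpha 5 chain, measured 225.3 and 170.9 in N-inv, 100.1 and 98.4 in SC, and 214.1 and 237.0 in PBS, a difference of -1.01 ± 0.18 for SC against PBS (unadjusted p = 0.000975, adjusted p = 0.5). Bcam and the brighter Lama5 probe set thus both had each SC array below each PBS array, while the second Lama5 probe set overlapped. In N-inv the brighter Lama5 probe set was also below PBS without overlap, but Bcam overlapped PBS. Itga10, a collagen-binding chain, measured 181.1 and 91.1 in N-inv, 333.0 and 342.6 in SC, and 201.3 and 307.7 in PBS. Of 14 receptors above the filter, 12 were higher in N-inv than in SC and 2 lower, with a median of 0.31, where 58% of all probe sets tested were higher, with a median of 0.05.

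Of 14 turnover genes above the filter, 9 were higher and 5 lower in N-inv against PBS, with a median of 0.06. Mmp14, a membrane-bound collagenase, measured 865.5 and 1232 in N-inv, 1041 and 933.8 in SC, and 653.4 and 680.6 in PBS. Its differences were 0.61 ± 0.21 for N-inv against PBS and 0.55 ± 0.21 for SC against PBS (SE, adjusted p of 1 and 0.605 in limma), with all 4 N-inv and SC arrays above PBS. Adamts4, a proteoglycan-cleaving protease, measured 3628 and 4327 in N-inv, 2729 and 1261 in SC, and 3746 and 3865 in PBS, so both SC arrays were lowest. In all 5 lists 0 genes passed the adjusted threshold in any comparison.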

How the data were processed

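The deposited table holds linear probe set intensities from Affymetrix 3' arrays of L1 cord, made by the authors and scaled so that each array's 2% trimmed mean is 1000. Per the labels' protocols, biotin-labelled cRNA was prepared from 100 ng RNA in 2 cycles. The summarisation method and genome build are not given in the sources used here. Array medians lay between 241.7 and 279.2. The number of arrays limits the precision. Of 45101 probe sets, 64 controls were left out. Symbols came from the platform annotation: 34945 probe sets had 1 symbol, 932 several and 9160 none.

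Arrays were brought to a median of 256.2. For log2(intensity + 25.6), a model with a mean per group was fitted by lmFit and eBayes (limma 3.58.1 under R 4.3.3), with two-sided tests, 3 residual degrees of freedom and Benjamini-Hochberg adjustment over the 27022 probe sets above the filter. The fit was tested on simulated data. Class medians and counts are descriptions with no test. Alternatives changed the normalization, the pseudocount, the filter, the variance model, the samples and the probe sets of a gene.

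The members and lists were chosen with earlier results of these data known. Named in each comparison were 13 core chains and up to 5 member genes per direction with the smallest p, and up to 2 genes of each partner list. Second probe sets, Col10a1 and genes described for their pattern were chosen after their values were seen. Promoter windows came from RefSeq (GRCm38.p6).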

Additional observations from a re-analysis of the deposited data

How the results depend on the processing

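With 2 arrays per group the precision is low, intensities below about 150 are poorly measured, and no result named here rests on a call. Collagen and laminin probe sets called at an adjusted p stayed at 0 in all 3 comparisons under every alternative run. Alternatives that changed only the filter, the variance model, a block by replicate number or the groups fitted could not change a gene's difference. Part of the following count was therefore fixed in advance. Of 590 values of single genes under alternatives that keep all arrays, 585 kept their direction and their side of the threshold. The cause of the exceptions was not tested. They were Lamc1 for N-inv against PBS, at -0.02 with values as deposited and -0.40 with the mean of a gene's probe sets; Lamc1 for SC against PBS, at 0.00 with quantile normalization; and Lamb1 for SC against PBS, at 0.03 with quantile normalization and 0.16 with the mean of probe sets. The filter at the 60th percentile, which leaves 9 basement membrane genes, gave them a median of 0.14 for N-inv against PBS and 0.07 for N-inv against SC. Over all probe sets, an intensity trend called 1 for N-inv against PBS and 2 for N-inv against SC, and a fit of only the groups compared called 1 for N-inv against PBS.

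The replicate numbers did not pair the arrays: deviations of same-numbered arrays correlated at -0.03 between N-inv and SC, 0.01 between N-inv and PBS and 0.04 between SC and PBS. With the replicate number as a block, 0 probe sets were called in each comparison. Every group holds 1 array of each number, so the block could change the spread but not a difference. The basement membrane medians were therefore the same as without it. They were 0.01 for N-inv against PBS, 0.21 for N-inv against SC and -0.06 for SC against PBS.

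With 1 array left out in turn, the lone array of its group was assumed to vary like the others. For N-inv against PBS the count of all probe sets called ranged from 0 to 1, the basement membrane median from -0.03 to 0.25, the fibrillar median from -0.18 to 0.21, Lama2 from -0.22 to 0.05, Lamc1 from -0.13 to 0.16, Col13a1 from -1.00 to 0.01, Col4a2 from -0.03 to 0.31, Lama4 from -0.03 to 0.32, Lamb1 from -0.03 to 0.53, Col1a2 from -0.35 to 0.15 and Col3a1 from -0.43 to 0.09. For N-inv against SC the count ranged from 0 to 1, Lamc1 from -0.07 to 0.22, Col1a1 from -0.18 to 0.31, Col5a1 from -0.31 to 0.03, Col4a1 from -0.50 to 0.18, Col4a2 from -0.60 to 0.34, Lama2 from -0.48 to 0.05 and Lama4 from -0.10 to 0.60. For SC against PBS the count ranged from 0 to 9 (9 without SC replicate 1), the basement membrane median from -0.28 to -0.03, the fibrillar median from -0.21 to 0.18, Col5a2 from -0.09 to 0.54, Lama4 from -0.46 to 0.24, Lamb1 from -0.31 to 0.25, Lamb2 from -0.12 to 0.21, Col5a1 from -0.17 to 0.06, Lamc1 from -0.13 to 0.02, Col4a2 from -0.20 to 0.74 and Lama2 from -0.13 to 0.40. Counts of members with an unadjusted p under 0.05 without either SC array, an alternative chosen after seeing the data, were 3 to 6 genes and 4 to 9 probe sets higher for N-inv against SC, with 1 gene and 1 to 3 probe sets lower. For SC against PBS they were 1 to 3 genes and 2 to 3 probe sets higher, with 5 to 6 genes and 7 to 10 probe sets lower.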
